A study of Danio rerio with 7 samples.

Results

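The genes described here are the collagen chains of the zebrafish cell line PAC2 and the enzymes that modify and crosslink them. They were chosen by gene name, with earlier results of these data known. Among its top genes raised in both transcript and protein, the study had already listed the collagens *col6a2* and *col2a1b*. The rule took every identifier whose name starts as a collagen alpha chain (col, a type number, a and a chain number), with p4ha, with plod or with lox. The names of 76 identifiers matched, of which 51 had values among the 17570 genes of the count matrix, and the other 25 were not analysed here. The 51 comprised 37 collagen chains, 13 modifying enzymes and *LOXHD1*, which shares the letters of the rule but is a protein of sensory hair cells and not a lysyl oxidase. Of the 51, 43 had a mean of at least 1 CPM, the usual scaling of counts to library size, and 8 were below it.

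PAC2 is a permanent line derived from zebrafish embryos, and all samples were the same untreated cells in serum-containing medium. RNA was sequenced from 4 biological replicates on day 8 after seeding, in the exponential phase, and from replicates 1, 2 and 4 on day 14, in the stationary phase. Each replicate was a separate passage with its own starting day, and replicate 3 of day 14 was lost before sequencing. Total estimated counts ranged from 11252454 to 33414678 per library. Medium was exchanged 7 days after seeding, so growth phase, days in culture and time since the exchange cannot be told apart. RNA was taken from whole wells, so fewer cells of a type and less RNA per cell cannot be told apart either. In the following, library values are CPM on library sizes scaled with TMM, given for day 8 in the order of replicates 1 to 4 and for day 14 in the order of replicates 1, 2 and 4.

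Collagens are trimers of alpha chains wound into a triple helix. In the endoplasmic reticulum, prolyl 4-hydroxylases stabilise the helix by hydroxylating prolines and lysyl hydroxylases (PLOD) modify lysines, and after secretion lysyl oxidases (LOX) crosslink the chains outside the cell. Fibrillar collagens give tissues tensile strength, network collagens build sheets such as basement membranes, fibril-associated collagens (FACIT) sit on the surface of fibrils, and type VI forms beaded filaments around cells.

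On day 14, 16 of the 51 members were called higher (31.4%) and 7 lower (13.7%), against 12.0% and 13.3% of all genes tested. A gene was called when edgeR's quasi-likelihood test gave an adjusted p below 0.05 over all 17570 genes. Every day 14 library was above every day 8 library for 20 members and below for 7, against 17.1% and 17.7% of all genes. The median log2 difference of the members was 0.43, while that of all genes was 0.0032. Collagen chains accounted for most of the rises, with 14 of 37 called higher and 5 lower. The 13 enzymes had 2 called higher and 2 lower, at a median log2 difference of 0.24. The members that fell were the fibrillar chain *col5a3a*, the network chain *COL10A1*, the FACIT chain *col19a1* (ENSDARG00000076163), the type XXVIII chains *col28a1b* and *col28a2b*, the prolyl 4-hydroxylase subunit *P4HA1* and the lysyl oxidase *LOXL4*.

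**Figure D1:**
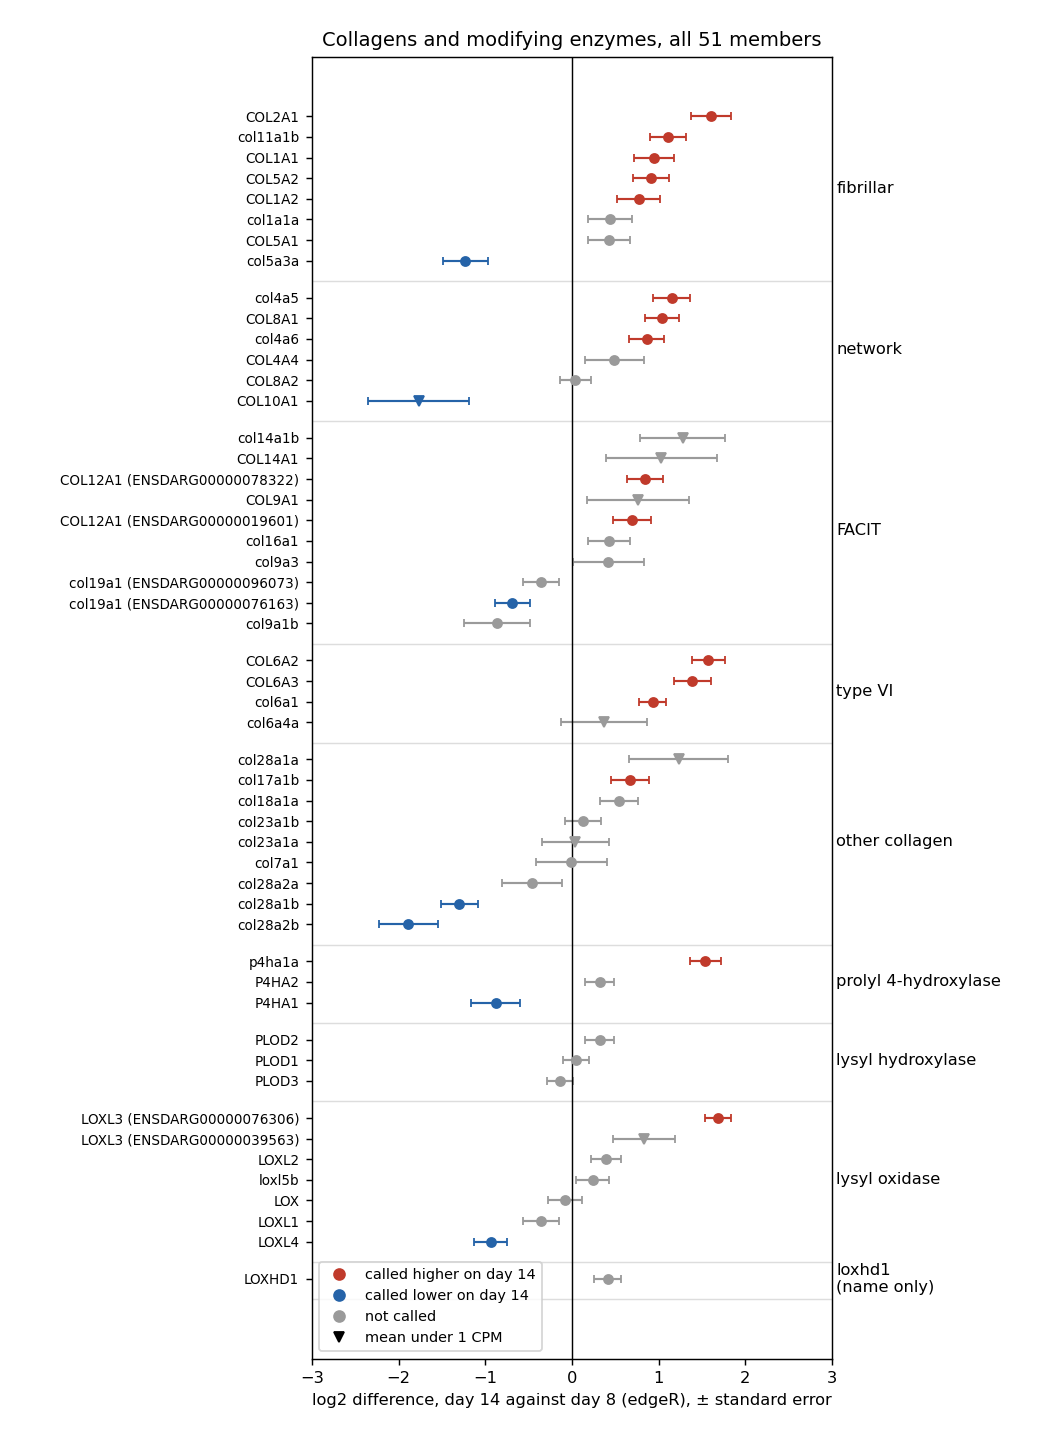
Log2 difference between day 14 and day 8 (x axis, with its standard error) for all 51 members, sorted within collagen class or enzyme family. Red points were called higher on day 14 (16 members), blue points lower (7 members) and grey points were not called, and triangles mark a mean under 1 CPM.

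Scaling bore on the number of rises. Without TMM scaling the median log2 difference of all genes moved to -0.17, the members' median was 0.24 and 10 members were called higher in place of 16, while 7 were still called lower. Of the 23 called members, 14 kept their call in all alternative fits and with each library left out (10 higher, 4 lower).

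Of the 8 fibrillar chains, 5 were called higher and 1 lower, against 12.0% and 13.3% of all genes tested. Their median log2 difference was 0.84. Type I, the main collagen of skin and bone, was represented by *col1a1a* and *COL1A1* (ENSDARG00000035809), both named for alpha 1, and by *COL1A2*, named for alpha 2. *COL1A1* stood at 987, 803, 559 and 599 CPM on day 8 and at 1776, 1287 and 1213 CPM on day 14. All day 14 libraries were above all day 8 libraries, and the log2 difference was 0.95 ± 0.23 (SE, adjusted p = 0.0109). This call was lost without TMM scaling (adjusted p = 0.0597) and without day 14 replicate 1, the highest library (0.0513).

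*COL1A2* measured 2362, 1806, 1258 and 1380 CPM on day 8, against 3515, 2760 and 2434 CPM on day 14. The groups did not overlap, but the lowest day 14 library lay just above day 8 replicate 1. The log2 difference of 0.77 ± 0.25 passed the test narrowly (adjusted p = 0.0378). The call did not hold without TMM scaling (0.152), nor on leaving out any library except day 8 replicate 1 (adjusted p from 0.0533 without day 8 replicate 3 to 0.142 without day 14 replicate 1, and between them 0.0759 and 0.103 without day 8 replicates 2 and 4, 0.0956 and 0.0614 without day 14 replicates 2 and 4). For the other alpha 1 gene, *col1a1a*, day 8 libraries held 1933, 1601, 1027 and 1074 CPM and day 14 libraries 2327, 1695 and 1695 CPM. Here the groups overlapped, because day 8 replicate 1 exceeded 2 of the 3 day 14 libraries, and the log2 difference of 0.44 ± 0.25 did not pass (adjusted p = 0.23). Each of the 3 type I genes was higher on day 14 in all 3 replicates sampled on both days. For *col1a1a* the log2 differences within replicates 1, 2 and 4 were 0.27, 0.08 and 0.66. The share of all genes with such agreement was not counted.

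Together the type I chains took 0.608%, 0.464%, 0.266% and 0.318% of all counts on day 8 and 0.76%, 0.507% and 0.492% on day 14. They made up between 48.7% and 60.3% of the counts of all 51 members. A share of counts also grows with transcript length, which was not available, so these are shares of sequenced RNA and not of molecules.

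Type V and type XI chains copolymerise with type I and type II and set the thickness of fibrils. *COL5A2*, the alpha 2 chain of type V, had 204, 146, 107 and 112 CPM on day 8 and 280, 277 and 242 CPM on day 14. It was higher in every day 14 library than in any day 8 library, by 0.91 ± 0.21 on the log2 scale (adjusted p = 0.00831, and 0.0648 without TMM scaling). Its partner *COL5A1*, the alpha 1 chain, had 758, 518, 354 and 426 CPM on day 8 and 745, 587 and 749 CPM on day 14. These groups overlapped through day 8 replicate 1, and no call was made at a log2 difference of 0.43 ± 0.24 (adjusted p = 0.214). Without that library it was 0.68 and passed (adjusted p = 0.0213), the only 1 of 14 alternatives in which it did. In the others adjusted p ran from 0.125 with the replicate as a block to 0.594 without TMM scaling.

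The third type V chain went the other way. *col5a3a* had 27.6, 24.4, 14.6 and 18.9 CPM on day 8 and 10.8, 5.77 and 10.5 CPM on day 14. All day 14 libraries were below all day 8 libraries, and expression fell by 2.35-fold, a log2 difference of -1.23 ± 0.26 (adjusted p = 0.00484). The call was kept in every alternative, with adjusted p no higher than 0.0283.

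*col11a1b*, an alpha 1 chain of type XI, was measured at 164, 120, 82.6 and 98.9 CPM on day 8 and at 273, 232.5 and 246 CPM on day 14. It rose 2.15-fold without overlap (log2 difference 1.11 ± 0.21, adjusted p = 0.00254). Of the identifiers named *COL2A1*, the type II chain of cartilage and of the notochord sheath, only ENSDARG00000011407 had values. Its levels were 23.5, 15.9, 13.8 and 12.0 CPM on day 8 and 58.4, 51.4 and 37.0 CPM on day 14. This was the largest rise among the fibrillar chains, at 3.02-fold (log2 difference 1.60 ± 0.23, adjusted p = 0.000581). Both calls held in every alternative.

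Other markers of cartilage and notochord were examined beside *COL2A1*. Of a list of 16 names, 7 identifiers had values, 4 of them collagens described here, with *COL2A1* itself among them. The 7 summed to 40.4 to 62.0 CPM on day 8 and 98.3 to 127 CPM on day 14. Most of that sum was *COL2A1*, with means of 16.3 and 48.9 CPM on the 2 days, and *SOX9*, with 28.5 and 58.3 CPM. The highest mean of any other gene on the list was 2.36 CPM, for *col9a3* on day 14. *SOX9*, a transcription factor of cartilage, was called higher (log2 difference 1.03, adjusted p = 0.000998), whereas *acana*, which encodes the cartilage proteoglycan aggrecan, was called lower, from 0.87 to 3.24 CPM on day 8 to at most 0.27 CPM on day 14 with 1 library at 0 (adjusted p = 0.00276). *MATN3* and the type IX chains *COL9A1*, *col9a1b* and *col9a3* were not called. Their part in the rise of *COL2A1* was not tested.

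**Figure D2:**
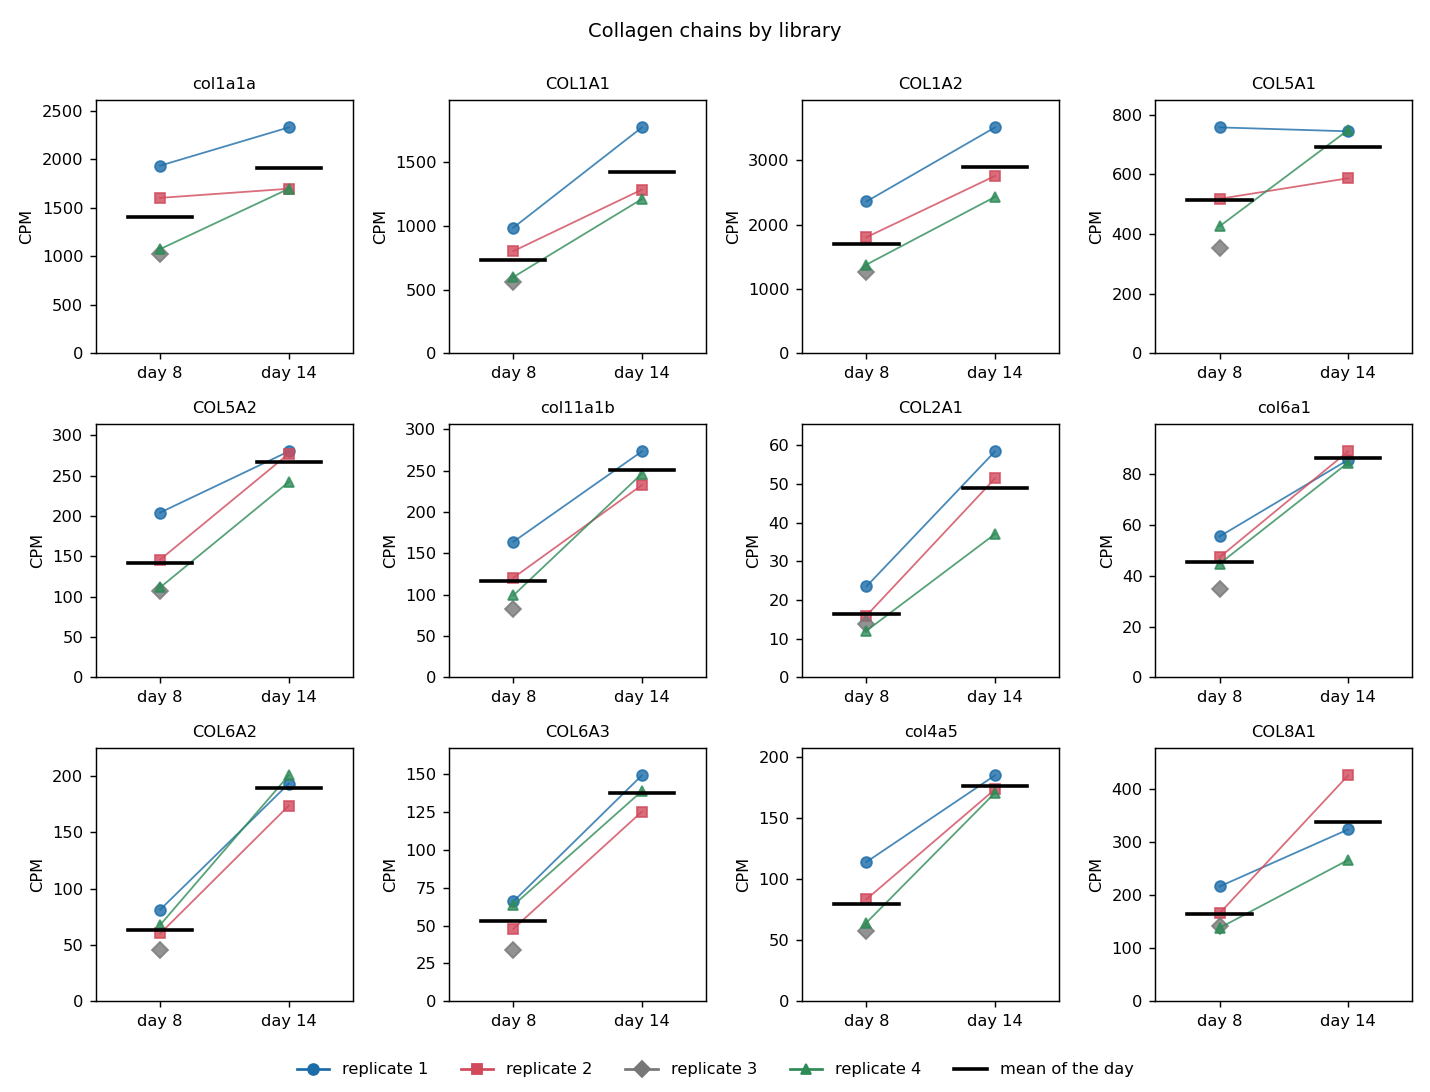
CPM (y axis, from 0) of 12 collagen chains in each library on day 8 and day 14, with lines joining libraries of the same replicate and black bars at the mean of each day. Day 8 replicate 1 was the highest day 8 library in each of these panels, so that *col1a1a* and *COL5A1* overlapped between days whereas the type VI chains, *COL2A1* and *col4a5* did not.

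The day 8 libraries were ordered alike across the abundant chains. Among the 18 chains with a mean of at least 10 CPM, day 8 replicate 1 was the highest of the 4 day 8 libraries for 17 (94.4%) and replicate 3 the lowest for 16 (88.9%). Over all genes at that level the figures were 30.1% and 30.2%. Day 8 replicate 1 was also the highest for 10 of the 13 modifying enzymes (76.9%), against 30.9% of all genes at any level. It had the fewest total counts of all libraries (11252454) and the largest TMM factor (1.15). The part of depth and scaling in this order was not tested. Deviations from the day 8 mean were taken on log2 of CPM with a pseudocount of 1 CPM. The fibrillar chains averaged 0.52 in day 8 replicate 1, -0.39 in replicate 3, and 0.87, 0.52 and 0.55 in the day 14 libraries. For the 6 fibrillar chains above 100 CPM, which leave out *col5a3a* and *COL2A1*, day 8 replicate 1 averaged 0.53 and the day 14 libraries 1.01, 0.70 and 0.70. For type VI day 8 replicate 1 was at 0.27 and the day 14 libraries at 0.91 to 1.08. These averages cover all 4 chains, among them *col6a4a* under 1 CPM, which can move little on this scale.

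Among the network collagens, 3 of 6 chains were called higher and 1 lower, against 12.0% and 13.3% of all genes tested. *col4a5* and *col4a6* encode chains that pair in a minor form of type IV collagen, the scaffold of basement membranes. *col4a5* had 114, 83.4, 57.1 and 64.3 CPM on day 8 and 185, 173 and 170.5 CPM on day 14. It rose 2.21-fold with tightly grouped day 14 libraries (log2 difference 1.15 ± 0.21, adjusted p = 0.00221). *col4a6* had 5.41, 6.21, 7.88 and 5.84 CPM on day 8 and 9.68, 11.4 and 13.5 CPM on day 14, again without overlap (log2 difference 0.86 ± 0.20, adjusted p = 0.00731). *COL4A4*, whose day 8 replicate 3 was far below the other day 8 libraries, was not called (log2 difference 0.49), and *COL4A1*, *COL4A2* and *col4a3* were not analysed here.

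Type VIII is a short-chain collagen of vessel walls and of the membrane under the corneal endothelium. *COL8A1* had 216, 166, 141 and 138 CPM on day 8 and 324, 426 and 266 CPM on day 14. It rose 2.05-fold without overlap (log2 difference 1.04 ± 0.20, adjusted p = 0.00323), and replicate 2 was the highest on day 14. *COL8A2*, which encodes the partner chain, ranged over 87.3 to 146 CPM on day 8 and 106 to 134 CPM on day 14 and was not called (log2 difference 0.04). Its sign depended on the scaling, with -0.16 without TMM.

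Of the identifiers named *COL10A1*, the type X chain known from hypertrophic cartilage and, in fish, from bone-forming cells, only ENSDARG00000101535 had values. It was close to the detection limit with 1 to 20 counts per library. Its levels were 0.70, 0.66, 0.65 and 0.85 CPM on day 8 and 0.18, 0.41 and 0.053 CPM on day 14. All day 14 libraries were below day 8, and the fitted log2 difference was -1.77 ± 0.58 (adjusted p = 0.0412). At these counts the call did not survive leaving out day 8 replicate 1, 2 or 4 (adjusted p = 0.0512, 0.0753 and 0.0935) or day 14 replicate 1 or 4 (0.131 and 0.145). It was also removed by the filter on genes under 1 CPM. An osteoblast list of 4 matched identifiers, which includes this gene, had *PHEX* called lower as well (log2 difference -0.88, adjusted p = 0.0441, in 9 of 14 alternatives), and *RUNX2* and *runx2b* not called. Their summed level overlapped between days, at 12.1 to 20.1 CPM and 11.2 to 16.3 CPM.

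Of the 10 FACIT chains, 2 were called higher, 1 lower and 7 not called, against 12.0% higher and 13.3% lower of all genes tested. Both genes named *COL12A1*, for the type XII collagen that links fibrils in tendon, ligament and fascia, were called higher. ENSDARG00000078322 had 242, 158, 118 and 185 CPM on day 8 and 345, 280 and 321 CPM on day 14, which did not overlap (log2 difference 0.84 ± 0.21, adjusted p = 0.013). Its call was lost without TMM scaling (0.0899) and narrowly without day 14 replicate 4 (0.0501). ENSDARG00000019601 had 349, 232, 191 and 284 CPM on day 8 and 411, 329 and 535 CPM on day 14. Day 8 replicate 1 exceeded day 14 replicate 2 here, and the difference was 0.69 ± 0.22 (adjusted p = 0.04). That call ended without TMM scaling (0.188) and without any 1 of day 8 replicates 2, 3 and 4 (0.105, 0.0633 and 0.0641) or day 14 replicates 1 and 4 (0.0722 and 0.2).

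Type XIX, a minor collagen of basement membrane zones, is represented by a pair of identifiers named *col19a1*. ENSDARG00000076163 had 71.8, 71.8, 40.2 and 53.6 CPM on day 8 and 36.6, 37.3 and 36.2 CPM on day 14. The day 14 libraries lay within 1.1 CPM of each other and below all day 8 libraries, of which replicate 3 came closest. The log2 difference was -0.69 ± 0.20 (adjusted p = 0.0235), and the call was lost without day 8 replicate 2 (0.0738) and without day 14 replicate 1, 2 or 4 (0.0608, 0.083 and 0.0882). ENSDARG00000096073, with day 8 replicate 2 far above the rest, was also below day 8 in all day 14 libraries but was not called (log2 difference -0.36, adjusted p = 0.228). Differences of the other FACIT chains, none of them called, ran from -0.87 for *col9a1b* to 1.28 for *col14a1b*, and 3 of them (*COL9A1*, *COL14A1* and *col14a1b*) averaged under 1 CPM.

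Type VI collagen gave the most uniform picture, with 3 of 4 chains called higher in every alternative and none lower. Of all genes tested, 12.0% were called higher and 13.3% lower. *COL6A2* (ENSDARG00000061436), the alpha 2 chain, had 81.3, 60.1, 45.2 and 67.8 CPM on day 8 and 193, 174 and 201 CPM on day 14. The lowest day 14 library was above the highest day 8 library by a wide margin, and expression rose 2.98-fold (log2 difference 1.57 ± 0.19, adjusted p = 0.000202). *COL6A3*, the large alpha 3 chain, had 65.9, 47.8, 33.8 and 63.3 CPM on day 8 and 149, 125 and 139 CPM on day 14. It rose 2.62-fold (log2 difference 1.39 ± 0.21, adjusted p = 0.000718).

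*col6a1*, the alpha 1 chain that assembles with both, had 55.5, 47.3, 34.7 and 44.8 CPM on day 8 and 85.8, 89.1 and 84.7 CPM on day 14. It also rose without overlap, by 0.93 ± 0.16 on the log2 scale (adjusted p = 0.00185). *col6a4a* had 0.46, 0.26, 0.60 and 0.38 CPM on day 8 and 0.48, 0.35 and 0.80 CPM on day 14. These levels overlapped, and it was not called (log2 difference 0.37 ± 0.50). Summed over the 4 chains, type VI took 0.0107% to 0.0234% of all counts on day 8 and 0.0343% to 0.0428% on day 14.

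Of 9 other collagens, 1 was called higher and 2 lower, against 12.0% and 13.3% of all genes tested. Both that fell encode type XXVIII, a collagen with von Willebrand factor A domains known in mouse from peripheral nerve. *col28a2b* had 14.1, 10.3, 5.98 and 8.19 CPM on day 8 and 3.87, 1.98 and 1.76 CPM on day 14. This was a 3.7-fold fall without overlap (log2 difference -1.89 ± 0.34, adjusted p = 0.00198) and the largest among called members. *col28a1b* had 11.5, 9.68, 9.73 and 10.5 CPM on day 8 and 5.34, 3.38 and 3.78 CPM on day 14. Its day 8 libraries lay close together, and it fell 2.46-fold (log2 difference -1.30 ± 0.21, adjusted p = 0.000998). Both calls held in every alternative. The duplicates *col28a2a* (log2 difference -0.46) and *col28a1a* (1.23, under 1 CPM) were not called.

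*col17a1b*, which encodes a transmembrane collagen known from epithelial hemidesmosomes, had 2.32, 2.81, 2.66 and 3.37 CPM on day 8 and 4.50, 4.43 and 4.47 CPM on day 14. The groups did not overlap, and the log2 difference was 0.67 ± 0.22 (adjusted p = 0.0416). This call was lost without TMM scaling (0.131) and on leaving out day 8 replicate 1, 2 or 3 (0.0767, 0.1 and 0.0555) or any 1 of the 3 day 14 libraries (0.107, 0.0997 and 0.106 without replicates 1, 2 and 4). In an epithelial list of 12 names, of which 7 identifiers had values, *cdh1* (log2 difference -1.26, adjusted p = 0.00034) and *krt4* (-0.59, adjusted p = 0.0122) were called lower and none higher. Of all genes tested, 13.3% were called lower and 12.0% higher. The summed level of the list overlapped between days, at 4760 to 5960 CPM and 5390 to 6100 CPM. Most of that sum was *krt8*, *krt18a.1* and *krt18b*, none of them called, with means of 2420, 1930 and 691 CPM on day 8. On the same day *cdh1* averaged 57.3 CPM. The part of these markers in the rise of *col17a1b* was not tested. *col18a1a*, for a basement membrane proteoglycan collagen that yields endostatin, had 175, 131.5, 83.5 and 98.9 CPM on day 8 and 199, 166 and 167 CPM on day 14. It was not called (log2 difference 0.54, adjusted p = 0.0963), but it was called with the replicate as a block (0.42, adjusted p = 0.0144) and without day 8 replicate 1 (0.76, adjusted p = 0.00804). *col7a1*, *col23a1a* and *col23a1b* lay between -0.01 and 0.13.

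Of the 3 alpha subunits of prolyl 4-hydroxylase, which carry the catalytic site, 1 was called higher and 1 lower. Of all genes tested, 12.0% were called higher and 13.3% lower. *p4ha1a* had 14.4, 14.0, 12.5 and 16.2 CPM on day 8 and 36.0, 36.0 and 52.5 CPM on day 14. All day 14 libraries were above all day 8 libraries, and it rose 2.91-fold (log2 difference 1.54 ± 0.18, adjusted p = 0.000163) in every alternative. *P4HA1* had 162, 113, 120 and 58.5 CPM on day 8 and 70.2, 63.2 and 51.3 CPM on day 14. The groups overlapped, since day 8 replicate 4 was below 2 of the day 14 libraries. Within replicates 1, 2 and 4 the log2 differences were -1.2, -0.84 and -0.19.

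The test called *P4HA1* lower at a log2 difference of -0.88 ± 0.28 (adjusted p = 0.0389). Without day 8 replicate 1, 2 or 3 the adjusted p was 0.0682, 0.077 and 0.109, and without day 14 replicate 1, 2 or 4 it was 0.0643, 0.106 and 0.15, so each of these libraries was needed for the call. *P4HA2* had 91.2, 82.1, 89.7 and 59.2 CPM on day 8 and 108, 106 and 88.0 CPM on day 14. It was not called (log2 difference 0.32, adjusted p = 0.197) but passed with the replicate as a block (0.39, adjusted p = 0.0148). Summed over the 3 subunits the level overlapped between days, at 134 to 267 CPM and 192 to 214 CPM. Within that sum *P4HA1* went from 43.7% to 60.5% on day 8 to 26.8% to 32.8% on day 14, and *p4ha1a* from 5.38% to 12.1% to 16.8% to 27.3%.

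None of the lysyl hydroxylases was called. *PLOD2*, which modifies lysines in the telopeptides, had 50.6, 49.5, 37.5 and 49.3 CPM on day 8 and 52.6, 52.8 and 69.6 CPM on day 14. Day 8 replicate 3 stood apart below the others, the day 14 libraries were all above day 8 but replicates 1 and 2 only slightly, and the log2 difference was 0.32 ± 0.17 (adjusted p = 0.18). *PLOD1* (0.05 ± 0.15) and *PLOD3* (-0.14 ± 0.15) overlapped between days.

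Lysyl oxidases are copper enzymes that oxidise lysines of collagen and elastin to start crosslinking. Of 7 measured, *LOXL3* (ENSDARG00000076306) was called higher, *LOXL4* lower and 5 were not called, while 12.0% of all genes tested were called higher and 13.3% lower. *LOXL4* had 417, 405, 297 and 392 CPM on day 8 and 246, 165 and 179 CPM on day 14. The highest day 14 library was below the lowest day 8 library, and expression fell 1.92-fold (log2 difference -0.94 ± 0.19, adjusted p = 0.00385). *LOXL3* (ENSDARG00000076306) had 19.2, 16.3, 14.7 and 16.8 CPM on day 8 and 51.3, 59.5 and 51.0 CPM on day 14. It rose 3.22-fold, the largest rise of all called members and the smallest adjusted p (log2 difference 1.69 ± 0.15, adjusted p = 4.62e-05). Both calls held in every alternative.

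The remaining lysyl oxidases were not called. *LOXL2* had 422, 371.5, 317 and 294 CPM on day 8 and 468, 480 and 429 CPM on day 14. The groups did not overlap, yet the log2 difference of 0.39 ± 0.17 missed the threshold (adjusted p = 0.117). It passed with the replicate as a block (0.35, adjusted p = 0.0347) and without day 8 replicate 1 (0.49, adjusted p = 0.0478). *LOXL1*, which is tied to elastic fibres in mouse, had 304, 270 and 223 CPM in day 8 replicates 1, 2 and 4 and 203, 195 and 163 CPM in the same replicates on day 14. Replicate 3 had 161 CPM on day 8, below every day 14 library.

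Over all libraries *LOXL1* was not called (log2 difference -0.36 ± 0.21, adjusted p = 0.23). It was called lower with the replicate as a block, where replicate 3 no longer contributes (-0.50, adjusted p = 0.00242), and without day 8 replicate 3 (-0.50, adjusted p = 0.0385). With the block 17.7% of all genes were called higher and 18.9% lower, and 4 members were added to the calls (*LOXL1*, *LOXL2*, *P4HA2* and *col18a1a*) and none lost. *LOX* (-0.08 ± 0.20) and *loxl5b* (0.24 ± 0.19) overlapped between days, and the second *LOXL3* (ENSDARG00000039563) averaged 0.91 CPM and was not called (0.83 ± 0.36). As a share of the summed CPM of the family, *LOXL4* went from 35% to 40.8% on day 8 to 17.7% to 24.6% on day 14 and *LOXL2* from 30.6% to 38.8% to 46.8% to 51.4%. *LOXHD1*, included by name only, was not called (0.41, adjusted p = 0.0783).

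**Figure D3:**
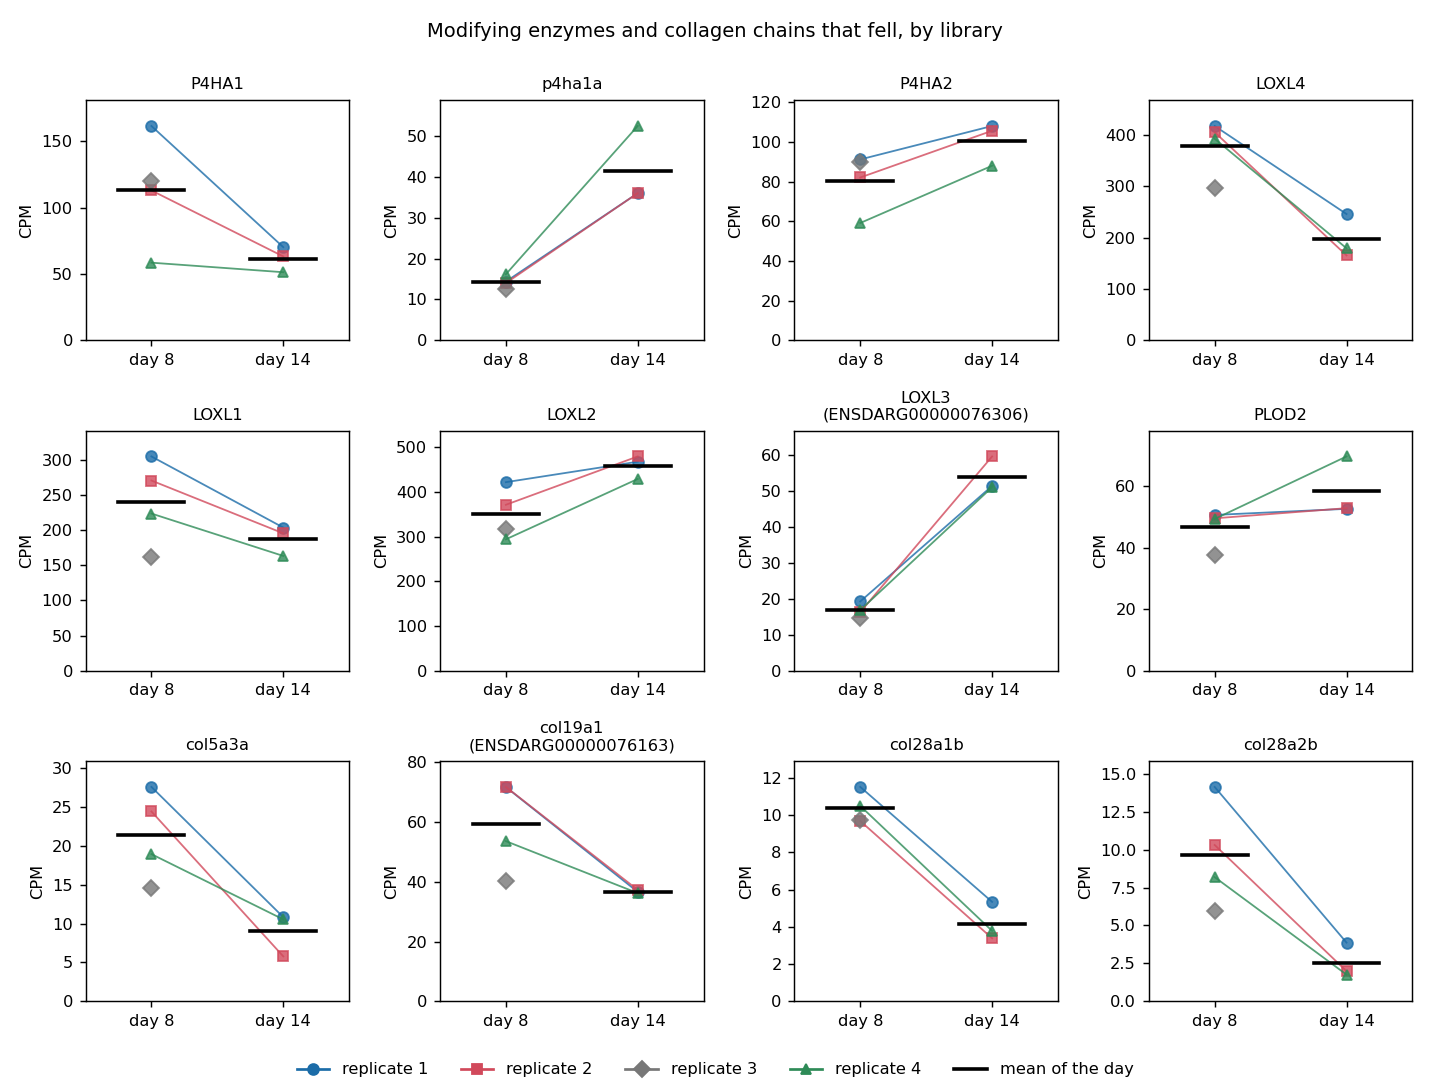
CPM (y axis, from 0) of 8 modifying enzymes and 4 collagen chains that were called lower, in each library on day 8 and day 14, with lines joining the same replicate and black bars at the mean of each day. *p4ha1a* and *LOXL3* (ENSDARG00000076306) rose in all 3 joined replicates, *LOXL4*, *col5a3a*, *col28a1b* and *col28a2b* fell in all 3, and *LOXL1* fell in all 3 although its unjoined replicate 3 lay at 161 CPM.

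Whether chains of one trimer kept their proportions was examined through the ratio of their CPM within each library, which is free of library scaling. In all, 11 ratios were computed, 6 between partner chains and 5 between duplicates, each with a two-sided exact permutation test over the libraries. The days did not overlap for 7 ratios, among them *P4HA1* to *p4ha1a* with an exact permutation p of 0.0571. For the other 6 of these p was 0.0286, the smallest that 7 libraries allow. With adjustment over the 11 ratios their p became 0.0524 and none passed. Because p cannot go below 0.0286 here, no ratio could pass this adjustment by itself, however large its shift.

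In type I, *col1a1a* and *COL1A1*, both named for alpha 1, were summed and divided by *COL1A2*. The ratio was 1.24, 1.33, 1.26 and 1.21 on day 8 and 1.17, 1.08 and 1.19 on day 14. Every day 14 library was below every day 8 library. The difference of log2 ratios was -0.14, the smallest among the 6 ratios at p = 0.0286 in the exact permutation test. *COL5A1* to *COL5A2* was 3.71, 3.55, 3.31 and 3.82 on day 8 and 2.66, 2.12 and 3.09 on day 14. In type VI, *col6a1* to *COL6A2* was 0.683, 0.787, 0.767 and 0.661 on day 8 and 0.444, 0.513 and 0.422 on day 14. *COL6A3* to *COL6A2* overlapped between days (difference of log2 ratios -0.17, exact permutation p = 0.114). In type VIII, *COL8A1* to *COL8A2* was 1.48, 1.25, 1.61 and 1.26 on day 8 and 2.42, 4.02 and 2.13 on day 14. The difference of log2 ratios was 0.98, and 0.70 without day 14 replicate 2.

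Among the duplicates, paired by name, *col1a1a* to *COL1A1* was 1.96, 1.99, 1.84 and 1.79 on day 8 and 1.31, 1.32 and 1.40 on day 14. The libraries of each day lay close together, also where the chains themselves varied widely between replicates. Whether *col1a1a* and *COL1A1* encode the same chain of the trimer was not examined. *col28a2b* to *col28a2a* was 11.3, 5.56, 4.69 and 5.83 on day 8 and 2.98, 2.27 and 1.85 on day 14. *P4HA1* to *p4ha1a* had the largest shift of all 11, with 11.2, 8.02, 9.56 and 3.61 on day 8 and 1.95, 1.75 and 0.979 on day 14 (difference of log2 ratios -2.32, exact permutation p = 0.0571, adjusted 0.0898). The 2 *COL12A1* genes and the 2 *col19a1* genes overlapped between days, as did *col4a5* to *col4a6*. How pseudo-alignment divided reads between similar copies was not tested.

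**Figure D4:**
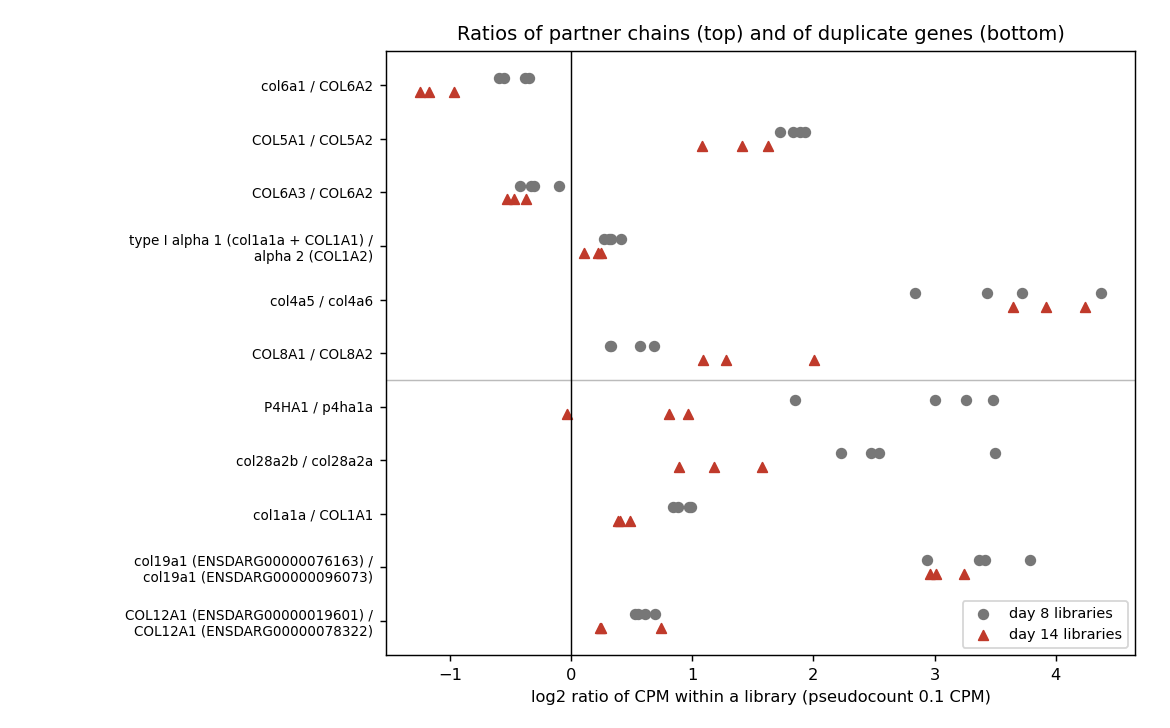
Log2 of the ratio of 2 members' CPM within each library (x axis, pseudocount 0.1 CPM) for 6 pairs of partner chains (above the line) and 5 pairs of duplicates (below it), with day 8 libraries as grey circles and day 14 libraries as red triangles. The days are separate for 7 of the 11 ratios, among them *col1a1a* to *COL1A1*, whose libraries cluster tightly within each day.

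Genes that serve collagen inside and outside the cell were counted from 4 lists. The lists were chosen with earlier results of these data known. Among its top genes raised in both transcript and protein, the study had already listed *SPARC* and *rcn3*, and also *col6a2*, *col2a1b* and *lum*. Among 29 genes of folding and modification, 13 were called higher and 1 lower, at a median log2 difference of 0.42. Of all genes tested, 12.0% were called higher and 13.3% lower. In all 14 alternative fits 6 of the 13 higher calls were kept. They were those of *SPARC*, *rcn3*, the *SERPINH1* gene at 1.34, *CALR* (0.66), *calr3a* (0.82) and *PDIA3* (0.86). The study lists *calr* and *calr3a* under the unfolded protein response, so the list is not limited to collagen. *HSPA5* (-0.04) and *HSP90B1* (0.42), also on the list, were not called. *SPARC*, a collagen-binding matricellular protein, had 400.0, 359, 545 and 507 CPM on day 8 and 1430, 1960 and 1850 CPM on day 14 (log2 difference 1.95 ± 0.21, adjusted p = 0.00012). *rcn3*, a calcium-binding protein of the endoplasmic reticulum, had 15.8, 10.6, 9.51 and 12.9 CPM on day 8 and 44.4, 58.5 and 48.1 CPM on day 14 (2.05 ± 0.19, adjusted p = 5.81e-05). Both genes named *SERPINH1*, for the collagen chaperone HSP47, were called higher, at 1.34 ± 0.19 and 0.70 ± 0.17, the latter in 12 of the 14 alternatives. The prolyl 3-hydroxylase *P3H1* was called higher at 0.61, while its partner *CRTAP* (-0.12), the cyclophilin *PPIB* (0.05) and *P4HB* (0.05), the beta subunit shared by the prolyl 4-hydroxylases, were not called. The fall was in 1 of 2 genes named *P4HTM* (-0.66, adjusted p = 0.0392, kept in 9 of 14 alternatives), a transmembrane prolyl 4-hydroxylase that in human cells acts on a hypoxia-inducible factor.

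Of 20 genes of procollagen secretion, 6 were called higher and 1 lower, against 12.0% and 13.3% of all genes tested. Their median log2 difference was 0.39, and 1 of the 6, *CREB3L1*, was called in all 14 alternatives. *CREB3L1*, a transcription factor that in mouse drives type I collagen in bone, had 2.01, 2.44, 1.90 and 2.22 CPM on day 8 and 10.7, 8.74 and 6.70 CPM on day 14 (log2 difference 2.02 ± 0.22, adjusted p = 0.00014). Its relative *CREB3L2* was higher by 0.81 ± 0.18. Among the coat proteins of vesicles that leave the endoplasmic reticulum, *sec23a* (0.54) and *SEC31A* (0.63) were called higher and *SEC23B* (-0.65) lower, in 9, 8 and 12 of the 14 alternatives. *mia3*, which encodes the cargo receptor TANGO1, was not called (0.20).

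Of 11 genes of procollagen processing, 3 were called higher and 1 lower, against 12.0% and 13.3% of all genes tested. The 3 were 1 of 2 genes each for *BMP1* (0.49), the procollagen C-proteinase, and its enhancer *PCOLCE2* (0.92), and the N-proteinase *ADAMTS14* (1.18). None of these calls was kept in all 14 alternatives: *BMP1* and *PCOLCE2* were called in 9 each and *ADAMTS14*, whose libraries overlapped between days, in 7. The called *PCOLCE2* gene averaged 4.61 CPM on day 8 and 8.68 CPM on day 14, and *ADAMTS14* averaged 0.84 and 1.9 CPM. The other, far more abundant *PCOLCE2* gene was not called (0.19), at means of 704 and 803 CPM. Also not called was *pcolcea*, at means of 506 and 504 CPM. The protease *FURIN* was called lower in 1 of 2 genes (-0.59), in 13 of the alternatives. Of 13 collagen receptors, 4 were called higher and none lower, among them the integrin chain *ITGA11*, which in 1 of 2 genes had 5.95, 1.96, 3.15 and 3.50 CPM on day 8 and 14.7, 12.1 and 14.7 CPM on day 14 (1.96 ± 0.29, adjusted p = 0.000664). *DDR2*, a receptor tyrosine kinase for fibrillar collagen, was called in 1 of 2 genes (0.64), in 11 of the 14 alternatives. The other 2 were *ITGA2* (1.90), with means of 0.876 CPM on day 8 and 3.27 CPM on day 14, and 1 of 3 genes named *ITGB1*. That *ITGB1* gene was at most 2.18 CPM, while the 2 abundant *ITGB1* genes were not called (0.11 and -0.54). The summed level of the receptor list overlapped between days, at 240 to 382 CPM and 315 to 375 CPM.

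**Figure D5:**
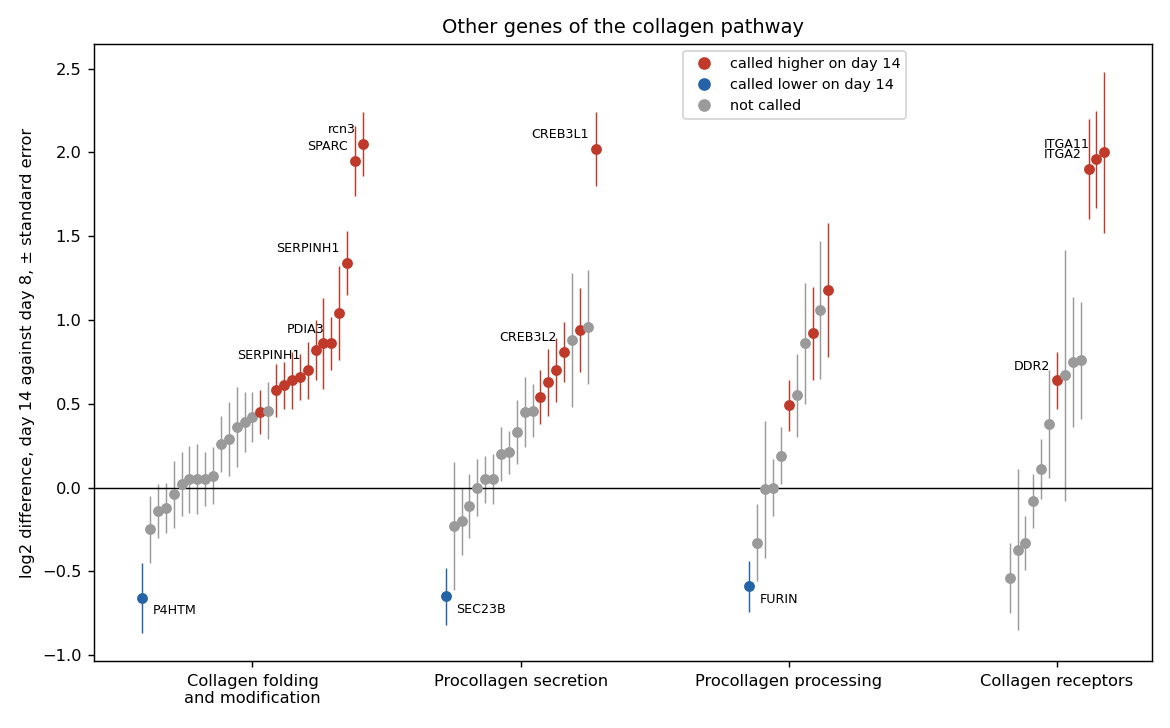
Log2 difference between day 14 and day 8 with its standard error (y axis) for each gene of 4 lists of collagen-related genes (x axis), sorted within a list and coloured by call. In the folding list 13 of 29 genes were called higher and 1 lower, and *SPARC* and *rcn3* lie near or above 2. So do *CREB3L1* in the secretion list and *ITGA11*, *ITGA2* and 1 *ITGB1* gene in the receptor list.

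PAC2 is an embryonic line that, according to the study, was originally classified as fibroblast-like. The study found markers of both fibroblasts and epithelium in it, but no vimentin protein and only negligible vimentin transcript. It describes the cells as rather epithelial-like in appearance and proposes that the classification may need to be reconsidered. Vimentin was not on the fibroblast list used here. Markers of several types were measured in the same libraries. The epithelial keratin *krt8* had 2200 to 2580 CPM on day 8 and 2600 to 2760 CPM on day 14 and was not called (log2 difference 0.15). Of a fibroblast list with 14 matched identifiers, 3 of them type I chains, 8 were called higher (3 of them in all 14 alternatives), 1 lower and 5 not called. Of all genes tested, 12.0% were called higher and 13.3% lower. The list summed to 5980 to 8630 CPM on day 8 and 9960 to 12800 CPM on day 14. Within that sum, *col1a1a*, *COL1A1* and *COL1A2* averaged 1410, 737 and 1700 CPM on day 8. On day 14 these type I chains averaged 1910, 1430 and 2900 CPM, and *POSTN* went from 2040 to 3390 CPM. *LUM*, a small proteoglycan that binds collagen fibrils, rose most (log2 difference 2.2, adjusted p = 5.16e-05). *FN1*, fibronectin, was called higher in 1 of 2 genes (1.42), from a mean of 12.6 CPM on day 8 to 33.6 CPM on day 14. The other, more abundant *FN1* gene was called lower (-0.89), from a mean of 238 CPM to 128 CPM. *PDGFRB* was not called (-0.02). Muscle genes had a summed level of 117 to 171 CPM on day 8 and 28.1 to 51.4 CPM on day 14, through *ACTA1* (-2.61, adjusted p = 0.000345), while *MYOD1* and *MYOG* were not called. For leukocytes 2 of 10 names had values, with a sum of 1.86 to 3.25 CPM over all libraries and no call. For endothelium 2 genes had values, with *kdrl* called lower (-1.47, adjusted p = 0.0367, in 9 of 14 alternatives) at 8.05 CPM or less in sum. The part of any change in cell makeup in the collagen results was not tested.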

How the data were processed

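RNA of PAC2 cells was sequenced from stranded mRNA libraries of 4 day 8 and 3 day 14 samples. Per the labels and the study's methods, the authors pseudo-aligned reads to the transcriptome of GRCz11 (Ensembl) with Kallisto, took estimated counts per gene, removed genes of very low expression (filterByExpr of edgeR) and deposited 17570 genes. The matrix is titled normalized, but its values are unscaled estimated counts, 48.0% to 52.3% of them exactly whole, with no tolerance. No column was left unused (0). No transcript lengths came with the matrix, and the study's correction for them was not made here.

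Estimated counts were rounded and tested over all genes with edgeR 4.0.16 in R 4.3.3 (TMM library sizes, glmQLFit with robust estimation after estimateDisp, then glmQLFTest with Benjamini-Hochberg adjustment), with growth phase as the only term. DESeq2 1.42.0 was an alternative, beside other scalings, a filter at 1 CPM in 3 libraries, the newer quasi-likelihood form, no robust estimation, a replicate block and each library left out. Ratios of CPM were taken with a pseudocount of 0.1 CPM and tested by exact permutation, with 35 arrangements of 4 and 3 libraries (SciPy 1.17.1). The fits were tested on simulated data. Depth limits genes with few counts. No library was present more than once: for the most similar pair, chi-square per degree of freedom over genes was 14.5.

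Names came from a gene name table that pairs 15073 identifiers (85.8%) with symbols, some in human style. Listed names without an exact match were matched without their final a or b. Members, classes, lists (collagen folding and modification, secretion, processing and receptors, and markers of fibroblasts, epithelium, cartilage and notochord, osteoblasts, leukocytes, muscle and endothelium) and tests were chosen with earlier results of these data known. Named with all library values were all members called lower, up to 3 called members per class with the largest differences above 1 CPM, all type I, V and VI chains and the called enzymes. *col18a1a*, *COL8A2*, *P4HA2*, *PLOD2*, *LOXL1* and *LOXL2* and the day 8 comparison at 10 CPM were chosen after their values were seen.

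Replicate numbers pair the libraries, since the treatment protocol in the labels gives the replicates different passages and starting days. As a check, each gene's deviation from its mean of the day was correlated between libraries of day 8 and day 14: Pearson's r was 0.307 for the libraries of replicate 1, -0.123 for replicate 2, 0.383 for replicate 4 and -0.335 to 0.346 for libraries of unlike number. The study's design has no block.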

Additional observations from a re-analysis of the deposited data

Results flagged for a closer look

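In 3 of the 51 members 1 day 8 library stood apart from the other 3, by the size of its gap relative to the range of the 4 libraries. Chance marks about 1 in 20 groups. For *PLOD2* day 8 replicate 3 (37.5 CPM against 49.3 to 50.6 CPM) had a gap of 0.900 of the range. For *COL4A4* the same library (0.71 CPM against 1.39 to 1.52 CPM) had a gap of 0.846. For *col19a1* (ENSDARG00000096073) it was day 8 replicate 2 (6.91 CPM against 4.90 to 5.16 CPM), with a gap of 0.870.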

How the results depend on the processing

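The 16 members called higher became 10 without TMM scaling, and all genes called higher fell from 2101 to 1218. With 1 library left out, between 12 and 18 members were called higher and between 4 and 7 lower, and over all genes 1282 to 2317 higher and 1361 to 2544 lower. The lowest counts came without day 14 replicate 2 (1282 higher and 1437 lower) or replicate 4 (1286 and 1361). The count of 4 members called lower came without day 8 replicate 2, day 14 replicate 1 or day 14 replicate 4. With the replicate as a block, to which replicate 3 adds nothing, 19 members were called higher and 8 lower, over all genes 3109 and 3322, and no call changed other than the 4 named above. All 6 ratios without adjustment kept p = 0.0286 in the exact permutation test with a pseudocount of 1 CPM. No called member changed sign.

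Signs changed for members near 0 that were not called. Without TMM scaling *PLOD1* was -0.139, *COL8A2* -0.156, *col23a1a* -0.132 and *col23a1b* -0.055. With the block *COL8A2* was -0.084 and *col23a1a* -0.036. *col7a1* was 0.001 with the 1 CPM filter and 0.027 in the newer quasi-likelihood form. With 1 library left out *PLOD1* ranged from -0.025 to 0.123, *LOX* from -0.191 to 0.074, *COL8A2* from -0.079 to 0.148, *col7a1* from -0.174 to 0.247 and *col23a1a* from -0.105 to 0.214. Without TMM scaling every difference moves down with the median of all genes. For the other changes the cause was not tested. Depth limits the 8 members under 1 CPM.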
